A study of Mus musculus with 12 samples.

Results

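Heat shock chaperones are proteins that help other proteins fold, refold and assemble. The 10 genes described here encode the cytosolic HSP90 pair (Hsp90aa1, Hsp90ab1), the cytosolic HSP70 system (Hspa8, Hspa4l, Hsph1, Dnajb1), the HSP90 co-chaperones Stip1 and Ahsa1, and the mitochondrial chaperonin Hspd1 with its partner Hspe1. They were chosen by name from a table of 36255 genes, and all 10 passed the filter on low counts that left 18837 genes for testing. Polyadenylated RNA was sequenced from mouse samples labelled as embryo. The 11 libraries fall into 6 groups by title: Skp1aKO (2 libraries), Skp1acont PI (1) and Skp1acont (2) at 9.5 days post coitum (dpc), wt PI (2) and wt (2) at 9.5 dpc, and wt (2) at 9.0 dpc. Skp1a encodes SKP1, a core subunit of SCF ubiquitin ligases. The labels do not spell out "cont" or "PI", and they give no strain, Cre driver, clone or treatment beyond these words. They give ES or EB medium as the culture, and the design text mentions ES cells and an embryoid body, so the origin of the RNA is not settled here. The second Skp1acont PI library was not analysed here. Nothing in the labels states that libraries within a group are from different embryos. The p-values therefore describe library-to-library spread, part or all of which may be technical.

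HSP70 binds short hydrophobic stretches of unfolded proteins. J-domain proteins such as DNAJB1 deliver the client and start ATP hydrolysis, and exchange factors such as HSPH1 and HSPA4L release ADP so that the client can leave. STIP1, also called HOP, bridges HSP70 and HSP90 and passes clients on, and AHSA1 speeds up the ATPase of HSP90. In mitochondria HSPD1 forms the folding chamber and HSPE1 is its lid. Constitutive members such as Hspa8 and Hsp90ab1 are abundant in unstressed cells, while the heat shock factor HSF1 raises many members after proteotoxic stress by binding heat shock elements, arrays of the triplet GAA in alternating orientation.

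Promoter windows of 300 bases (250 before to 50 after a transcription start, RefSeq, GRCm38.p6) were matched by symbol for 7 of the 10 genes: Hspa4l, Hsph1, Stip1, Ahsa1, Hspd1, Hspe1 and Dnajb1. A pair of GAA triplets in opposite orientation was searched as TTCNNGAA or GAANNTTC, each of which reads the same on both strands and which overlap each other in longer arrays. These 7 genes have 10 windows, with 2 each for Hspd1, Hsph1 and Dnajb1. Such a pair stood in a window of 3 of the 7 genes: Hspd1, Hspe1 and Hsph1. The other Hspd1 window, chr1:55088194-55088493, held none. Of all 32544 promoter windows, 15.1% held a pair in either order, and 0.608% held 3 triplets in a row (TTC, GAA and TTC, spaced by 2 bases each, on either strand). These shares count windows, while 3 of 7 counts genes with any such window. Hspd1 and Hspe1 are divergent neighbours. The Hspd1 start used below and the Hspe1 start, both from RefSeq, lie 216 bases apart. The windows of these starts share 285 bases and with them the same array. Windows of 4 genes are shown, for Hsph1 only the window whose start is used below. Hspe1 and Hsph1 hold an array and were lower in libraries labelled Skp1aKO than in wt. Hspa4l and Stip1 hold none and moved in opposite directions between the wt groups. Hspa4l was also lower in Skp1aKO than in wt (log2 fold change -1.33). Hspd1, with the array of Hspe1, did not pass that comparison (-0.56). The 4 genes shown are examples, and a link between array and change was not tested. Capitals mark the triplet pairs.
Hspe1, chr1:55087898-55088197, plus strand: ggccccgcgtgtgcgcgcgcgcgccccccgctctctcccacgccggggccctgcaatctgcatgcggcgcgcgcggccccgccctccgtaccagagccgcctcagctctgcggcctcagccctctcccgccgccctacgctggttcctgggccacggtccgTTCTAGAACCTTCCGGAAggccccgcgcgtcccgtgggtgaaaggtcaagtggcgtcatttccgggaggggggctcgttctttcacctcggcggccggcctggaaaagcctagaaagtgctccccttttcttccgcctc
Hsph1, chr5:149636287-149636586, minus strand: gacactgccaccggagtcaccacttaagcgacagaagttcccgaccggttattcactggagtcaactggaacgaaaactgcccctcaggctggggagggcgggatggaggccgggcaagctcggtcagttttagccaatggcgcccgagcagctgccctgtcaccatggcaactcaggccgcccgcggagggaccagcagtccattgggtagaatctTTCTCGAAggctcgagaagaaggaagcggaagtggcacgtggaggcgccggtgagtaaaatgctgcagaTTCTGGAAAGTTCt
Hspa4l, chr3:40745363-40745662, plus strand: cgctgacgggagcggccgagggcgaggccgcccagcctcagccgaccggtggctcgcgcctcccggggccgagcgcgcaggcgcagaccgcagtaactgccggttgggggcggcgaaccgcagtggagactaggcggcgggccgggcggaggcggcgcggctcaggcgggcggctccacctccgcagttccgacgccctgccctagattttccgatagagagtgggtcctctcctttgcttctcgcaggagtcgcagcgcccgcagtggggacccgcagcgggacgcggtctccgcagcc
Stip1, chr19:7039977-7040276, minus strand: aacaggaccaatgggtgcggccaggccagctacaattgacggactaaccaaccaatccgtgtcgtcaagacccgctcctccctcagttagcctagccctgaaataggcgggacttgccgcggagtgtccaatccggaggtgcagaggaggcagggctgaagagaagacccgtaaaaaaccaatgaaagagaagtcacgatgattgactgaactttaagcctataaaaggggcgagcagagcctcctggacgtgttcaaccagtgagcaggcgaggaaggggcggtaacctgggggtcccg

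The array of Hspe1 is a run of 18 bases at chr1:55088059-55088076 that starts 89 bases before its start site. Read on the Hspd1 strand, the same run is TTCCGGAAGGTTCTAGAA and starts 144 bases before the Hspd1 start. Hsph1 has an isolated pair, TTCTCGAA, 33 bases before its start and a 13-base array, TTCTGGAAAGTTC, that begins 36 bases after it. The Stip1 window holds a TATAAA, 30 bases before the start, and 4 CCAAT boxes. TATAAA stands in 13.6% and CCAAT in 37.4% of all windows on either strand. The windows of Hspa4l, Stip1, Ahsa1 and Dnajb1 held none of the searched pairs, which says only that these letters are not in those windows.

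Levels are given as CPM, counts scaled to library size, with TMM, a normalization that assumes that most genes do not differ between libraries. Total counts were 2320599 to 4203553 in the 5 libraries with a Skp1a label and 3392251 to 11607085 in the 6 wt libraries. Skp1a itself had 199 and 212 CPM in libraries labelled Skp1aKO, 273 CPM in Skp1acont PI, 303 and 104 CPM in Skp1acont and 930 to 1337 CPM in the 6 wt libraries. Skp1a thus did not separate Skp1aKO from Skp1acont, and which exons were targeted is not given in the sources used here. The Skp1a-labelled libraries stood apart in other ways too. Mitochondrial transcripts took 5.98% to 15.8% of their counts, against 2.44% to 4.01% in wt, and ribosomal protein genes took 3.33% to 9.11%, against 12.4% to 15.7% in wt. The median level over 2003 olfactory, vomeronasal and similar chemoreceptor genes, taken as background because embryos should hold almost none of these transcripts, was 0.254 to 1.16 CPM per kb of exon in them and 0.038 to 0.141 in wt. Skp1acont lot 2 was the extreme in each of these measures. A background of that size would make up 86.5% of the Dnajb1 count and 41.3% of the Hspa4l count in that library, 15.2% for Hsph1, 14.2% for Ahsa1 and at most 4.55% for the other 6 genes in any library.

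The scaling matters for every comparison across the Skp1a label. Relative to library totals in place of TMM, log2 fold changes over all genes had a median of 1.04, against 0.24 with TMM, for Skp1aKO against wt, 1.08, against 0.34, for Skp1acont against wt and 0.69, against 0.10, for Skp1acont PI against wt PI. The share of called genes that were higher was 83.0%, 85.1% and 88.8% in these 3 comparisons, against 48.5%, 53.0% and 25.3% with TMM. Fold changes of the chaperones are therefore also given relative to the median gene, a difference in which a shift common to all genes cancels by construction. The 10 genes together held 1.24% and 1.42% of all counts in libraries labelled Skp1aKO, 1.29% in Skp1acont PI, 1.43% and 0.876% in Skp1acont, 1.45% and 1.45% in wt PI, 1.26% and 1.39% in 9.5 dpc wt and 1.60% and 1.71% in 9.0 dpc wt.

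Hspe1 (chr1:55088132-55091307, plus strand, GRCm38), the chaperonin lid, showed the widest gap between the labels. It had 675 and 736 CPM in libraries labelled Skp1aKO, 949 CPM in Skp1acont PI, 975 and 285 CPM in Skp1acont, 2978 and 2773 CPM in wt PI, 3027 and 3142 CPM in 9.5 dpc wt and 4866 and 4830 CPM in 9.0 dpc wt. All 5 Skp1a-labelled libraries lay below all 6 wt libraries, on TMM and on library totals. Of all 18837 genes tested, 21.3% lay below in this way and 21.3% above with TMM, and 7.79% below and 37.3% above on library totals. Of the 10 chaperones, 5 lay below with TMM and 1 on totals, and none lay above. Its partner Hspd1 (chr1:55077835-55088243, minus strand), the chamber, had 348 and 402 CPM in libraries labelled Skp1aKO, 454 CPM in Skp1acont PI, 469 and 210 CPM in Skp1acont, 982 and 1010 CPM in wt PI, 518 and 589 CPM in 9.5 dpc wt and 924 and 976 CPM in 9.0 dpc wt. The labels did not overlap for Hspd1 either with TMM, but they did on library totals, and within wt the 9.5 dpc libraries without PI were the low ones. The exons of the 2 genes share 112 bases on opposite strands, and the use of strand in counting is not given in the sources used here.

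Hsp90aa1 (chr12:110690605-110702728, minus strand) encodes the stress-inducible form of cytosolic HSP90. It had 3227 and 3497 CPM in libraries labelled Skp1aKO, 2962 CPM in Skp1acont PI, 3127 and 2450 CPM in Skp1acont, 5873 and 5460 CPM in wt PI, 5892 and 6421 CPM in 9.5 dpc wt and 7255 and 7819 CPM in 9.0 dpc wt. Every Skp1a-labelled library was below every wt library with TMM, while on library totals the ranges overlapped. Hsp90ab1 (chr17:45567775-45573271, minus strand) encodes the constitutive form. It had 3576 and 3308 CPM in libraries labelled Skp1aKO, 3815 CPM in Skp1acont PI, 3775 and 2243 CPM in Skp1acont, 3956 and 3892 CPM in wt PI, 2214 and 2644 CPM in 9.5 dpc wt and 3744 and 3923 CPM in 9.0 dpc wt. Its low libraries were Skp1acont lot 2 and both wt libraries at 9.5 dpc without PI, so the labels overlapped.

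Hspa8 (chr9:40800984-40810087, plus strand), the constitutive HSP70 called HSC70, had 1447 and 1266 CPM in libraries labelled Skp1aKO, 1871 CPM in Skp1acont PI, 2592 and 821 CPM in Skp1acont, 3813 and 3770 CPM in wt PI, 3557 and 4001 CPM in 9.5 dpc wt and 4883 and 5323 CPM in 9.0 dpc wt. Hsph1 (chr5:149614287-149636376, minus strand), the exchange factor HSP105, had 51.2 and 50.1 CPM in libraries labelled Skp1aKO, 82.2 CPM in Skp1acont PI, 116 and 38.9 CPM in Skp1acont, 143 and 144 CPM in wt PI, 152 and 198 CPM in 9.5 dpc wt and 201 and 218 CPM in 9.0 dpc wt. With TMM, each of the 5 Skp1a-labelled libraries held less of both genes than each wt library, and the labels overlapped on library totals. Hspa4l (chr3:40744495-40796103, plus strand), a second exchange factor of the HSP110 family, behaved otherwise. It had 36.2 and 37.3 CPM in libraries labelled Skp1aKO, 30.9 CPM in Skp1acont PI, 37.2 and 23.2 CPM in Skp1acont, 42.4 and 42.9 CPM in wt PI, 95.4 and 89.7 CPM in 9.5 dpc wt and 29.7 and 30.1 CPM in 9.0 dpc wt. The wt libraries at 9.5 dpc without PI were the only ones above 43 CPM, and the 9.0 dpc libraries lay among the Skp1a-labelled ones. Dnajb1 (chr8:83608193-83612653, plus strand), the J-domain protein HSP40, had 25.7 and 20.1 CPM in libraries labelled Skp1aKO, 32.3 CPM in Skp1acont PI, 45.2 and 3.02 CPM in Skp1acont, 40.0 and 35.9 CPM in wt PI, 50.3 and 46.8 CPM in 9.5 dpc wt and 37.4 and 38.9 CPM in 9.0 dpc wt. The lowest value, in Skp1acont lot 2, rests on 10 counts.

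The HSP90 co-chaperones ran close to each other. Stip1 (chr19:7020702-7039967, minus strand) had 76.4 and 71.8 CPM in libraries labelled Skp1aKO, 133 CPM in Skp1acont PI, 159 and 37.7 CPM in Skp1acont, 199 and 219 CPM in wt PI, 65.7 and 79.0 CPM in 9.5 dpc wt and 137 and 159 CPM in 9.0 dpc wt. Ahsa1 (chr12:87266479-87273998, plus strand) had 58.9 and 62.5 CPM in libraries labelled Skp1aKO, 102 CPM in Skp1acont PI, 124 and 25.1 CPM in Skp1acont, 160 and 161 CPM in wt PI, 58.7 and 82.2 CPM in 9.5 dpc wt and 147 and 170 CPM in 9.0 dpc wt. For both genes Skp1acont lot 1 held more than 4 times the level of lot 2, and the wt 9.5 dpc libraries without PI were the low ones among wt. Per kb of exon, the order of the medians over the 6 wt libraries was Hspe1 (2093 CPM per kb), Hsp90aa1 (1566), Hsp90ab1 (1273), Hspa8 (908), Hspd1 (360), Stip1 (70.2), Ahsa1 (35.0), Hsph1 (24.1), Dnajb1 (12.3) and Hspa4l (3.62). Neighbours in this order whose wt ranges overlapped were Hspe1 and Hsp90aa1, Hsp90ab1 and Hspa8, Stip1 and Ahsa1, and Ahsa1 and Hsph1. In the 5 Skp1a-labelled libraries Hsp90ab1 came first at a median of 1192 CPM per kb, before Hsp90aa1 at 796 and Hspe1 at 499. Exon length here joins all annotated exons of a gene. Lengths of single transcripts were not used, and both orders may differ with them. The heat-inducible genes Hspa1a, Hspa1b and Hspb1 held few counts in every library, with 0 to 3, 0 to 10 and 0 to 7. Whether reads of these genes were lost to near-identical copies was not examined, so the counts do not show that the genes were silent.

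**Figure D1:**
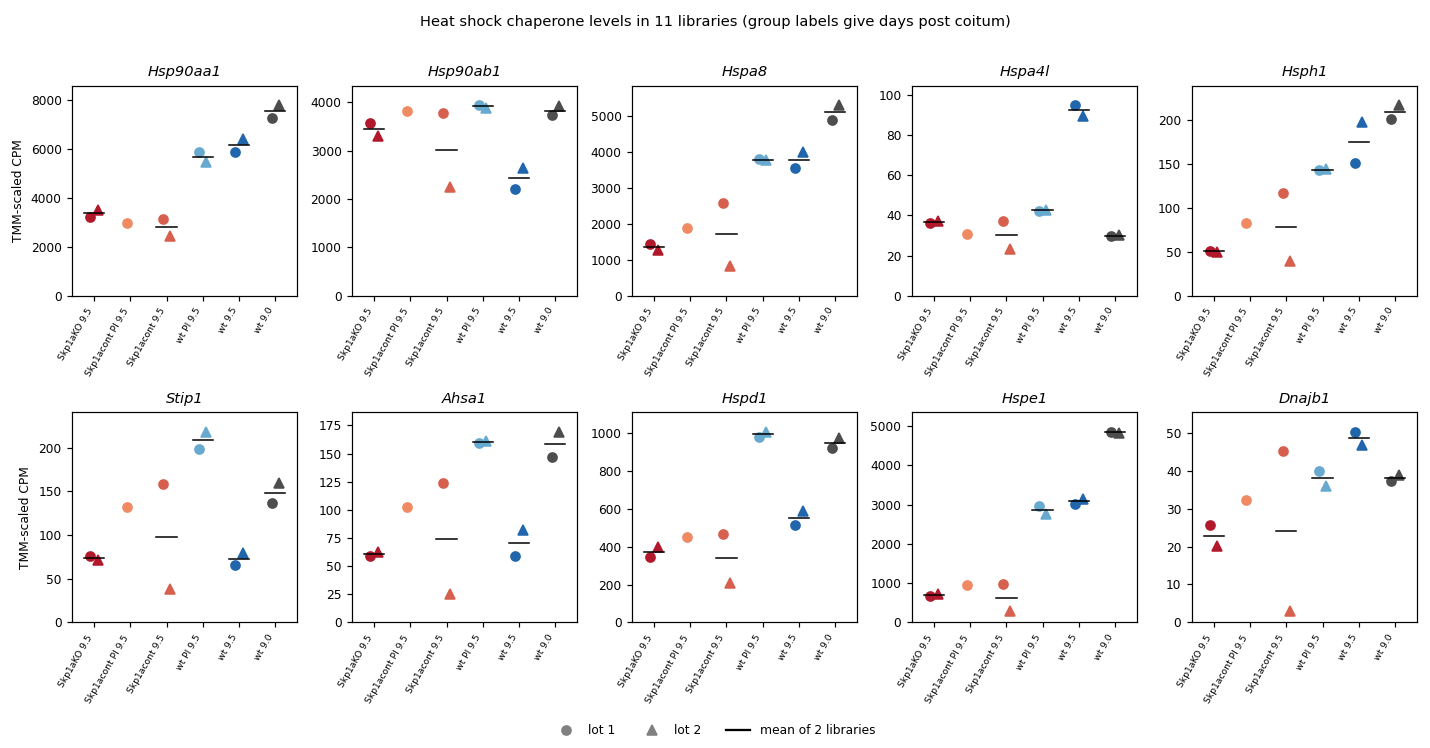
TMM-scaled CPM of the 10 chaperone genes (one panel each, y axis from 0) in 11 libraries by group, circles for lot 1 and triangles for lot 2, with a line at the mean of 2 libraries. Hspe1, Hspd1, Hsp90aa1, Hspa8 and Hsph1 are lower in all 5 Skp1a-labelled libraries than in the 6 wt libraries, as are 21.3% of all genes tested. Skp1acont lot 2 is the lowest library for all 10 genes except Hsp90ab1.

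Skp1aKO was compared with Skp1acont to ask what the label KO adds among Skp1a-labelled libraries. None of the 10 chaperones rose or fell, and neither was any of the 18837 genes (0%, edgeR quasi-likelihood test, Benjamini-Hochberg adjusted p below 0.05, smallest adjusted p 0.0824). At an unadjusted p below 0.05 edgeR found 1308 genes (6.94%) and 0 of the 10 chaperones, and DESeq2 called 95 genes (0.731% of 12993) and 0 chaperones. On library totals 0 chaperones were called, where 0.0106% of genes rose and 0.0106% fell. The median log2 fold change of the 10 genes was 0.02, against -0.11 for all genes, and single values lay between -0.62 ± 0.47 (SE) for Hsph1 and 0.27 ± 0.29 for Hspa4l. The 2 Skp1acont libraries lay on opposite sides of both libraries labelled Skp1aKO for 8 of the 10 genes. The exceptions were Hsp90aa1, where both Skp1acont libraries were below, and Hspa4l, where lot 1 lay between the 2 Skp1aKO values. Against Skp1acont lot 1 alone, 5 chaperones fell and none rose: Hsph1 by 1.18 on the log2 scale, Stip1 by 1.08, Ahsa1 by 1.01, Dnajb1 by 0.96 and Hspa8 by 0.92. In that comparison 27.3% of 17019 genes were called, with 17.5% lower and 9.79% higher. Against Skp1acont lot 2 alone, 9 chaperones rose and none fell, from 0.44 for Hsp90aa1 to 1.29 for Hspe1 and 2.89 for Dnajb1, while 31.3% of 18271 genes were called, with 21.2% higher and 10.1% lower. Hspa8, Stip1, Ahsa1 and Dnajb1 were thus called in opposite directions against the 2 libraries of the same group. Both of these fits rest on 1 Skp1acont library, assumed to vary like the other groups.

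**Figure D2:**
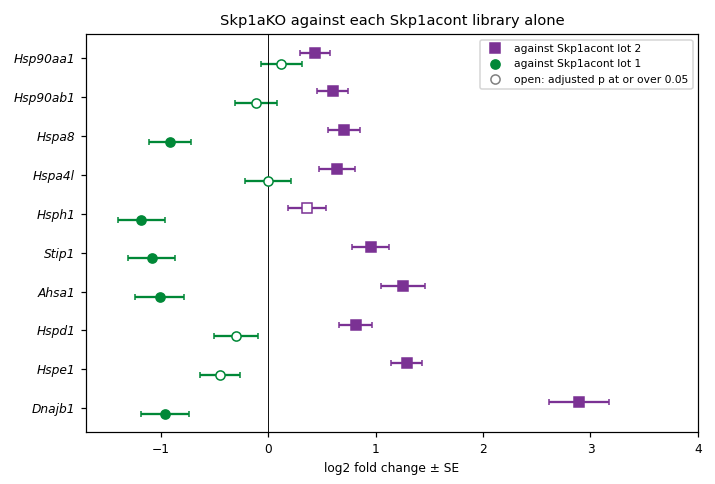
Log2 fold change ± SE of the 10 chaperones in libraries labelled Skp1aKO against Skp1acont lot 2 alone (squares) and against Skp1acont lot 1 alone (circles), with filled symbols where the adjusted p is below 0.05. Against lot 2, 9 genes are filled on the higher side, and against lot 1, 5 genes are filled on the lower side.

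Skp1aKO against 9.5 dpc wt addressed the difference from wild type. With TMM, 3 of the 10 chaperones fell and none rose, where 36.4% of all genes were called, 18.7% lower and 17.6% higher. Hspe1 averaged 706 ± 43.1 CPM in libraries labelled Skp1aKO and 3085 ± 81.5 CPM in wt (SD, n = 2 each), a log2 fold change of -2.13 ± 0.59 (SE, adjusted p = 0.0233). Hsph1 averaged 50.6 ± 0.727 CPM in libraries labelled Skp1aKO and 175 ± 32.9 CPM in wt, a log2 fold change of -1.79 ± 0.48 (adjusted p = 0.0217). Hspa4l averaged 36.7 ± 0.811 CPM in libraries labelled Skp1aKO and 92.6 ± 4.07 CPM in wt, a log2 fold change of -1.33 ± 0.29 (adjusted p = 0.0112). The other 7 did not pass, among them Hspa8 at -1.48 ± 0.57 (adjusted p = 0.0635), Hsp90aa1 at -0.87 ± 0.44 (0.133) and Hsp90ab1 at 0.50 ± 0.46 (0.379). The median of the 10 genes was -0.98, against 0.24 for all genes.

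These calls depend on the scaling. On library totals none of the 10 fell and Hsp90ab1 rose by 1.31 (adjusted p = 0.0344), where 7.41% of all genes fell and 36.3% rose. Relative to the median gene, Hspe1 lay -2.36 on TMM and -2.35 on library totals, Hsph1 -2.02 and -2.02, Hspa4l -1.57 and -1.56, and Hsp90ab1 0.27 and 0.27. Each pair of values matches by construction, so the match is no check of the calls. The median gene may itself carry the higher background of the Skp1a-labelled libraries, which was not tested. Leaving out either library of either group left 0 chaperones called, in fits that called 1.53% to 9.12% of all genes. The fold changes then stayed between -2.18 and -1.95 for Hspe1, -1.97 and -1.43 for Hsph1, and -1.34 and -1.22 for Hspa4l. Without Skp1acont lot 2, which is in neither group but widens the shared error, 7 fell (Hspe1, Hsph1, Hspa8, Hspa4l, Dnajb1, Hsp90aa1 and Hspd1) and Hsp90ab1 rose, where 67.9% of genes were called, 31.8% lower and 36.1% higher. DESeq2 called 5 lower and 1 higher, where it called 35.9% of genes. Erythroid markers moved with this contrast: the 10 genes of that list summed to 767 to 995 CPM in libraries labelled Skp1aKO and 15557 to 21153 CPM in wt, and 6 of them fell. The summed neuron markers lay at 219 to 431 CPM in libraries labelled Skp1aKO and 810 to 867 CPM in wt, and 5 of 10 fell. Neural progenitor markers summed to 913 to 965 CPM in libraries labelled Skp1aKO and 2622 to 3099 CPM in wt (1 rose, 2 fell), and mesenchyme markers to 145 to 157 CPM in libraries labelled Skp1aKO and 229 to 248 CPM in wt (2 rose, 3 fell). Endothelial markers were higher as a sum, with 664 to 1202 CPM in libraries labelled Skp1aKO and 210 to 497 CPM in wt, although 4 of the 10 fell and 1 rose. Endoderm and yolk sac markers summed to 23.8 to 24.0 CPM in libraries labelled Skp1aKO and 9.74 to 12.1 CPM in wt, and 1 of 4 tested rose. Trophoblast markers were lower as a sum, with 15.9 to 19.0 CPM in libraries labelled Skp1aKO and 36.8 to 182 CPM in wt. Yet of the 6 tested, 2 rose and 1 fell, with a median log2 fold change of 2.42, against 0.24 for all genes. The part of these cell types in the chaperone values was not tested, and in bulk RNA fewer cells of a type and less RNA per cell cannot be told apart.

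Skp1acont against 9.5 dpc wt shares its wt libraries with the comparison above, so the values are given side by side with no overlap drawn from them. Here 2 of the 10 fell and none rose, where 36.4% of all genes were called, 17.1% lower and 19.3% higher. Hspe1 averaged 630 ± 488 CPM in Skp1acont and 3085 ± 81.5 CPM in wt (SD, n = 2 each), a log2 fold change of -2.29 ± 0.59 (adjusted p = 0.0195). Hspa4l averaged 30.2 ± 9.90 CPM in Skp1acont and 92.6 ± 4.07 CPM in wt, a log2 fold change of -1.61 ± 0.29 (adjusted p = 0.00876). Both also fell on library totals, by 1.60 (adjusted p = 0.0347) and by 0.88 (0.0242), where 6.61% of genes fell. Hsph1 was at -1.17 ± 0.47, Hspa8 at -1.15 ± 0.56 and Hsp90aa1 at -1.14 ± 0.44, and none of them passed (adjusted p = 0.0739, 0.122 and 0.0657). Lot 2 decides much of this. Without it, Hspe1 (-1.54), Hspa4l (-1.19) and Hsp90aa1 (-0.85) fell while Stip1 (1.25), Ahsa1 (0.92) and Hsp90ab1 (0.76) rose, where 39.1% of genes were called, 19.2% lower and 19.9% higher. With lot 2 as the only Skp1acont library, 9 of the 10 fell, all but Hsp90ab1, where 74% of genes were called, 35.6% lower and 38.4% higher. Leaving out either wt library left 0 chaperones called, where 2.76% and 0.0709% of all genes were, with Hspe1 at -2.32 and -2.10 and Hspa4l at -1.56 and -1.49. Fitted on these 4 libraries alone edgeR called no gene. DESeq2 called 5 lower and 1 higher, where it called 37.1% of genes. The erythroid sum was 689 to 2457 CPM in Skp1acont, and 5 of 10 markers fell. Other lists moved too: 5 of 10 neuron and 4 of 10 neural progenitor markers fell, and 1 of 9 tested mesenchyme markers rose and 4 fell. Of 10 endothelial markers 2 rose and 1 fell, of 4 tested endoderm and yolk sac markers 1 rose, and of 6 tested trophoblast markers 2 rose and 1 fell. The part of these cell types was not tested.

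Skp1acont PI against wt PI set 1 library against 2. No chaperone was called, where 0.441% of all genes were (0.329% lower and 0.111% higher), nor on library totals, where 5.54% rose and 0.695% fell. None passed an unadjusted p of 0.05, which 24.6% of all genes did, and DESeq2 called Hsp90aa1 and Hspe1 lower, where it called 13.9% of genes. Hspe1 had 949 CPM in the Skp1acont PI library, against 2876 ± 145 CPM in wt PI (SD, n = 2), a log2 fold change of -1.60 ± 0.75 (adjusted p = 0.216). Hspd1 was at -1.13 ± 0.59, Hspa8 at -1.02 ± 0.71 and Hsp90aa1 at -0.94 ± 0.56. The median of the 10 was -0.73, against 0.10 for all genes. Without Skp1acont lot 2, which enters only the shared error here, Hspe1, Hspd1, Hspa8, Hsp90aa1 and Hsph1 were called lower, where 43.2% of genes were called and 22.5% were lower. The Skp1acont PI arm is 1 library in every such fit, and its spread is taken from the other groups. The difference between the effect of the Skp1acont label with PI and without PI was tested as an interaction. No chaperone passed (adjusted p 0.77 to 1), nor did any of the 18837 genes (0%), and 1 chaperone was under an unadjusted p of 0.05. The largest difference was that of Hspa4l, at 1.14 ± 0.45, with -0.46 for PI and -1.61 without PI.

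**Figure D3:**
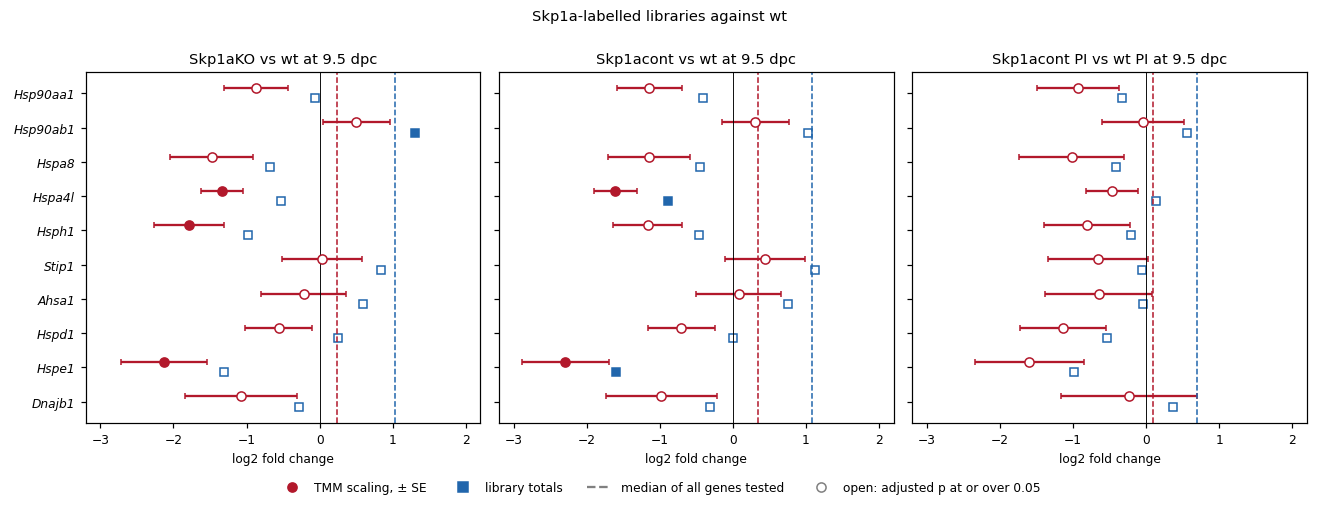
Log2 fold changes of the 10 chaperones in Skp1aKO against wt, Skp1acont against wt, and Skp1acont PI against wt PI, with TMM scaling (circles, ± SE) and library totals (squares), filled where the adjusted p is below 0.05. Dashed lines mark the median of all genes under each scaling, and Hspe1 lies farthest to the left of both lines in each panel.

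The wt libraries showed contrasts of their own, between stages and with PI. In the fit across all groups, 9.5 dpc wt against 9.0 dpc wt gave 1 call among the 10: Hspa4l rose by 1.63 ± 0.29 on the log2 scale (adjusted p = 0.0269), where 1.6% of all genes were called, 1.27% higher and 0.334% lower. It also rose on library totals, where 1.73% of genes rose, and in DESeq2, which called 3.63%. It averaged 92.6 ± 4.07 CPM at 9.5 dpc and 29.9 ± 0.251 CPM at 9.0 dpc (SD, n = 2 each). This call was lost when no filter on low counts was used and when either library of either stage was left out. Same-lot wt libraries deviated together, so the wt libraries were also fitted alone with lot as a block, where the spread was far smaller (7.19% biological coefficient of variation, against 35.3% across all groups). In that fit 2 of the 10 rose and 7 fell, where 41.7% of 13126 genes were called, 18.8% higher and 22.8% lower. Without the block 8 were called, where 31.7% of genes were. Hspa4l rose by 1.64 ± 0.11 and Dnajb1 by 0.35 ± 0.11 (adjusted p = 1.93e-09 and 0.0162). The largest falls were those of the HSP90 co-chaperones Ahsa1 (-1.12 ± 0.10) and Stip1 (-1.003 ± 0.091). Hspd1 (-0.75 ± 0.08), Hsp90ab1 (-0.63 ± 0.09), Hspe1 (-0.62 ± 0.09), Hspa8 (-0.40 ± 0.09) and Hsp90aa1 (-0.26 ± 0.09) fell too, and Hsph1 did not pass (-0.23 ± 0.09, adjusted p = 0.0559).

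wt PI against 9.5 dpc wt uses the same 9.5 dpc libraries, so a high or low value in them enters both contrasts with opposite sign. Across all groups no chaperone was called, where 0.069% of all genes were (0.0372% higher and 0.0319% lower), nor on library totals, where 0.0425% rose and 0.0531% fell. Of the 10, 2 passed an unadjusted p of 0.05, as did 8.69% of all genes, and DESeq2 called Hspa4l lower, where it called 1.78% of genes. In the wt libraries alone with lot as a block, 4 rose and 3 fell, where 38.9% of genes were called, 21% higher and 17.9% lower. Without the block 6 were called, where 28% of genes were. Stip1 rose by 1.52 ± 0.09 (adjusted p = 1.69e-09), Ahsa1 by 1.16 ± 0.10, Hspd1 by 0.84 ± 0.08 and Hsp90ab1 by 0.69 ± 0.09. Stip1 averaged 209 ± 13.9 CPM in wt PI and 72.3 ± 9.39 CPM in 9.5 dpc wt (SD, n = 2 each). Hspa4l fell by 1.11 ± 0.10, Dnajb1 by 0.36 ± 0.11 and Hsph1 by 0.30 ± 0.09. Hsp90aa1 (-0.13 ± 0.09), Hspe1 (-0.11 ± 0.09) and Hspa8 (-0.0026 ± 0.091) did not pass. Thus Hspd1 rose while its partner Hspe1 did not pass, and Hsp90ab1 rose while Hsp90aa1 did not pass. Markers of other cells stood apart in the same libraries: the neuron list summed to 286 to 290 CPM in wt PI, 810 to 867 CPM in 9.5 dpc wt and 102 to 113 CPM in 9.0 dpc wt, and the neural progenitor list to 1156 to 1233, 2622 to 3099 and 622 to 645 CPM in the same groups. The erythroid sums were 7664 to 10073, 15557 to 21153 and 8309 to 8432 CPM. Their part in the chaperone values was not tested.

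**Figure D4:**
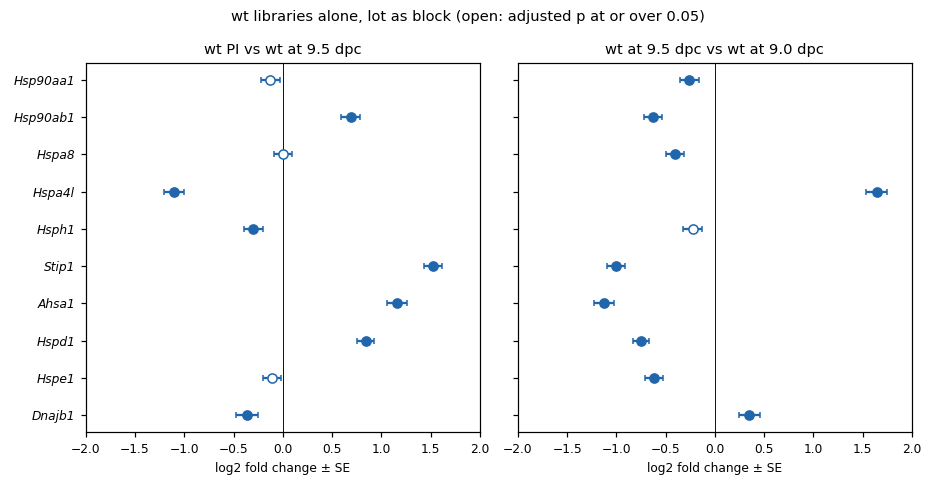
Log2 fold change ± SE of the 10 chaperones between wt groups, fitted on the 6 wt libraries with lot as a block, with filled circles where the adjusted p is below 0.05. Stip1, Ahsa1, Hspd1 and Hsp90ab1 are to the right in wt PI against 9.5 dpc wt and to the left in 9.5 dpc against 9.0 dpc, and Hspa4l lies the other way; both panels share the wt 9.5 dpc libraries.

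Ratios of counts within a library need no scaling. The 5 Skp1a-labelled libraries at 9.5 dpc were compared with the 4 wt libraries at 9.5 dpc for 6 ratios, with an exact two-sided permutation test that cannot go below p = 0.0159 and Benjamini-Hochberg adjustment over the 6. The test exchanges single libraries as if they were independent. They come from a few groups, and libraries of the same wt group lie close together. The p-values ignore this grouping and the lots, so they can overstate the evidence. The ratio of Hsp90aa1 to Hsp90ab1 counts was 0.902 and 1.06 in libraries labelled Skp1aKO, 0.776 in Skp1acont PI, 0.828 and 1.09 in Skp1acont, 1.48 and 1.40 in wt PI and 2.66 and 2.43 in 9.5 dpc wt. The inducible form thus held fewer counts relative to the constitutive form in every Skp1a-labelled library, with a log2 difference of -1.05 between means (-0.12 ± 0.21 in the 5 and 0.94 ± 0.48 in the 4, SD; exact permutation p = 0.0159, adjusted 0.0476). The wt libraries at 9.0 dpc, outside this test, had 1.94 and 1.99. The ratio of Hspd1 to Hspe1 counts was 0.516 and 0.546 in libraries labelled Skp1aKO, 0.478 in Skp1acont PI, 0.481 and 0.738 in Skp1acont, 0.330 and 0.364 in wt PI, 0.171 and 0.187 in 9.5 dpc wt, and 0.190 and 0.202 in 9.0 dpc wt. It was higher in all 5 Skp1a-labelled libraries, with a log2 difference of 1.13 (-0.88 ± 0.26 in the 5 and -2.005 ± 0.556 in the 4; exact permutation p = 0.0159, adjusted 0.0476). For both ratios the wt PI libraries lay between the wt 9.5 dpc libraries and the Skp1a-labelled ones. How often ratios of other gene pairs separate the labels was not examined, so the separation is not shown to be particular to these pairs. Of single genes with TMM, 21.3% lay wholly below and 21.3% wholly above the 6 wt libraries in the Skp1a-labelled ones. Both p-values are the smallest this design allows, and the adjusted 0.0476 is reached only because both ratios have it. Leaving out any library raises the smallest possible exact permutation p to 0.0286 or 0.0357. It takes the adjusted p to 0.0571 to 0.107. That rise follows from the limit, so it is no check of the ratios.

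The other 4 ratios did not pass. Stip1 to Hsp90ab1 differed by -0.62 on the log2 scale (exact permutation p = 0.127, adjusted 0.19) and Ahsa1 to Hsp90ab1 by -0.79 (p = 0.0794, adjusted 0.159). Hsph1 to Hspa8 differed by 0.01 and Dnajb1 to Hspa8 by 0.15 (both adjusted exact permutation p = 0.952). Skp1acont lot 2 decides the Dnajb1 value: without it the difference is 0.59 (adjusted exact permutation p = 0.0571), and the other 4 Skp1a-labelled libraries, at -5.98 to -5.82 on the log2 scale, do not overlap the 4 wt libraries, at -6.71 to -6.14. Hsph1 and Hspa8 kept nearly 1 ratio in all these libraries, between -4.82 and -4.34 on the log2 scale, although each was lower in all Skp1a-labelled libraries with TMM. For Hsp90aa1, Hspa8, Hspe1 and Hspd1, 42.1% to 68.8% of the 50-base stretches of their transcripts occur also in transcripts of other genes, annotated pseudogenes such as Hspd1-ps3 among them, so reads could be split or lost in counting; the rows of the copies examined in the table held at most 1.86% of the parent's count in any library. The corresponding share was 4.13% for Hsp90ab1, 12.9% for Ahsa1 and 0 for Hsph1.

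**Figure D5:**
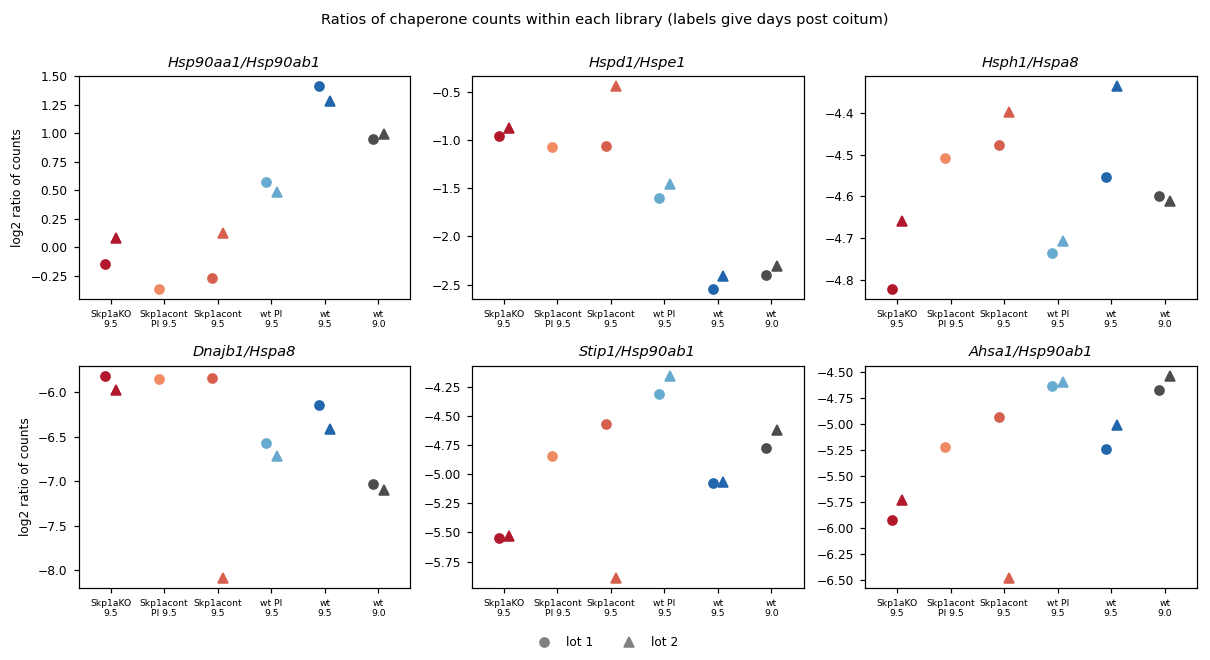
Log2 ratios of counts within each library for 6 pairs of chaperone genes, by group, circles for lot 1 and triangles for lot 2. Hsp90aa1/Hsp90ab1 is lower and Hspd1/Hspe1 higher in the 5 Skp1a-labelled libraries than in all wt libraries. How often other gene pairs separate in this way was not examined. The other 4 ratios overlap, and Dnajb1/Hspa8 has 1 low point in Skp1acont lot 2.

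Other genes of the chaperone network were counted in 7 lists of 85 genes. In Skp1aKO against 9.5 dpc wt, where 17.6% of all genes rose and 18.7% fell, 3 of 14 HSP90 co-chaperones rose and 4 fell, 4 of 16 tested HSP70 family genes and exchange factors fell, 4 of 10 mitochondrial chaperones and proteases fell, and 1 of 13 J-domain genes rose and 4 fell. The list medians were -0.34, -0.96, -1.01 and -0.68, against 0.24 for all genes; on library totals they were 0.46, -0.15, -0.20 and 0.12, against 1.04. On totals, where 36.3% of all genes rose and 7.41% fell, the same lists counted 6 up and 3 down, 3 up and 1 down, 2 down, and 2 up and 1 down. The ER chaperones split, with 2 of 15 up and 4 down, 1 of 5 tested heat shock regulators rose and 1 fell, and both tested small heat shock proteins fell. On totals these 3 lists counted 3 up and none down, 4 up and 1 down, and no call. Hsbp1, a small protein that binds HSF1, fell by 2.88 and Hikeshi, a nuclear import carrier of HSP70, fell by 2.55. Cacybp, a SIAH1-binding protein that also interacts with SKP1, fell by 2.37 and Grpel1, the exchange factor of mitochondrial HSP70, fell by 2.31. Cacybp had 138 and 170 CPM in libraries labelled Skp1aKO, 183 CPM in Skp1acont PI, 198 and 68.8 CPM in Skp1acont and 733 to 951 CPM in the 6 wt libraries, without overlap. Those that rose most were Hyou1 (2.57), an ER member of the HSP110 family, the HSP90-binding phosphatase Ppp5c (1.63), the myosin chaperone Unc45a (1.24) and the ER disulfide isomerase Pdia4 (1.21). On library totals Grpel1 lost its call (-1.51, adjusted p = 0.0508), and without a filter on low counts Pdia4 did (0.0956). Of these 8 genes, Hsbp1, Cacybp, Grpel1, Ppp5c, Unc45a and Pdia4 lost their calls whichever library of either group was left out. Hikeshi kept its call only without wt lot 1 (adjusted p = 0.0496), and Hyou1 lost it without Skp1aKO lot 1 (0.0556) or wt lot 2 (0.0597).

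Hyou1 is a gene of few counts, with 26.8 and 26.9 CPM in libraries labelled Skp1aKO and 7.34 and 2.57 CPM in 9.5 dpc wt. Hspa5, the ER HSP70 called BiP, had 315 and 384 CPM in libraries labelled Skp1aKO, 491 CPM in Skp1acont PI, 487 and 238 CPM in Skp1acont and 830 to 1010 CPM in the 6 wt libraries. It fell by 1.39 ± 0.45 in Skp1aKO (adjusted p = 0.0383) and by 1.34 ± 0.45 in Skp1acont (0.043) against wt, and neither call held on library totals, without a filter, or when either wt library was left out; with the replicate block the call in Skp1acont was lost too (adjusted p = 0.0552). Its mitochondrial relative Hspa9, mortalin, was at -0.93 ± 0.45 in libraries labelled Skp1aKO (adjusted p = 0.12) and at -0.92 ± 0.45 in Skp1acont (0.12). Hsf1 had 11.99 and 11.26 CPM in libraries labelled Skp1aKO, 15.7 CPM in Skp1acont PI, 17.3 and 19.0 CPM in Skp1acont and 5.28 to 10.002 CPM in the 6 wt libraries. It rose by 0.99 ± 0.28 in Skp1aKO against wt (adjusted p = 0.0246) and by 1.63 ± 0.28 in Skp1acont against wt (0.00767), on 18 to 91 counts per library. Background, which was higher in Skp1a-labelled libraries than in wt, was not estimated for Hsf1, and its part in this rise was not tested. The call in Skp1aKO was lost without a filter (adjusted p = 0.106) and when any library of either group was left out. Hsf2 was at 0.69 ± 0.32 and 0.68 ± 0.32 in the same comparisons and did not pass (adjusted p = 0.105 and 0.108), while on library totals it rose in both (1.48 and 1.44, adjusted p = 0.00792 and 0.00902) and DESeq2 called it higher in Skp1acont (0.99, adjusted p = 0.0357).

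In Skp1acont against wt, where 19.3% of all genes rose and 17.1% fell, the HSP90, HSP70, mitochondrial and J-domain lists counted 3 of 14 up and 3 down, 6 of 16 down, 2 of 10 down, and 1 of 13 up and 7 down. On totals, where 37.7% of all genes rose and 6.61% fell, they counted 6 up and 1 down, 2 up and 1 down, 1 up, and 2 up and 3 down. Of the ER chaperones 1 rose and 4 fell, of the regulators 2 rose and 1 fell, and neither small heat shock protein passed. The genes named by the same rule were Hyou1 (2.22), Ppp5c (1.91), Hsf1 and Unc45a (1.21) among those that rose, and Cacybp (-2.57), Dnaja2 (-2.28), a J-domain partner of Hspa8, Hikeshi (-2.22) and Hsbp1 (-2.09) among those that fell. All 8 calls were lost without wt lot 2 and all but those of Hyou1 and Hsf1 without wt lot 1; Hsbp1 also lost its call on library totals (-1.41, adjusted p = 0.0602) and Unc45a without a filter (0.0581). In 9.5 dpc wt against 9.0 dpc wt, Hspa12a, a distant HSP70 relative, rose by 2.29, a call lost when any library of the 2 stages was left out (adjusted p 0.0735 to 0.28). The fit across all groups called no other gene of the 7 lists between these stages, and none in wt PI against 9.5 dpc wt. Within wt alone with lot as a block, where 21% of all genes rose and 17.9% fell in wt PI against 9.5 dpc wt, 9 of 14 HSP90 co-chaperones rose and 1 fell, with a list median of 0.58, and 6 of 10 mitochondrial genes rose and none fell, with a median of 0.38. The HSP70 list counted 5 of 15 up and 2 down, the J-domain list 5 of 11 up and 3 down, the ER list 4 of 15 up and 6 down, the small heat shock proteins 1 of 2 up and the regulators 1 of 3 up and 2 down. In 9.5 dpc wt against 9.0 dpc wt, where 18.8% of all genes rose and 22.8% fell, 1 of 14 HSP90 co-chaperones rose and 9 fell (median -0.57) and 5 of 10 mitochondrial genes fell (median -0.26). The HSP70 list counted 3 up and 6 down, the J-domain list 3 up and 4 down, the ER list 2 up and 3 down and the regulators 1 down, and no small heat shock protein passed. These lists do not hold the 10 genes described above, and the 2 contrasts share the wt 9.5 dpc libraries.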

How the data were processed

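The values are whole-number read counts per gene in 1 table of 36255 genes, deposited by the authors with no normalization. The submitters' processing notes name Trim Galore 0.6.7 and the GRCm38 build. Which aligner and counter were used, and whether strand was, is not given in the sources used here. Per the labels' protocols, polyadenylated RNA was selected. The 10 genes, the gene lists and the tests were chosen with earlier results of these data known.

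The test was that of edgeR 4.0.16, run in R 4.3.3 (filterByExpr by group, TMM, robust quasi-likelihood F test, 1 fit of 6 groups, 6 comparisons, adjusted p below 0.05). SE is the log2 fold change divided by the square root of F. Alternatives were DESeq2 1.42.0, its size factors, library totals, no filter, a lot block, fewer groups and each library left out. Deviations from group means correlated between same-lot libraries in all 3 pairs of wt groups (r 0.297 to 0.343) and from 0.125 to 0.18 in 5 of the 7 pairs with a Skp1a label, but were 0.0488 and -0.0107 for Skp1acont with 9.0 and 9.5 dpc wt. The block was therefore used for the wt comparisons, and elsewhere its effect is given among the alternatives. Ratios were tested with scipy 1.17.1. Genes outside the 10 were named as the largest 4 called in each direction from the lists at a mean of at least 5 CPM, with Skp1a, Hspa1a, Hspa1b, Hspb1, Hspa5, Hspa9, Hsf1 and Hsf2 always. On simulated counts, 64% of 200 genes changed 4-fold were recovered for Skp1aKO against wt, 53% for Skp1aKO against Skp1acont and 29% for Skp1acont PI against wt PI. Replicate libraries differed by more than sampling noise. Exon lengths and transcripts come from GENCODE.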

Additional observations from a re-analysis of the deposited data

Results flagged for a closer look

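One within-library ratio stood far from its group. In Skp1acont lot 2 the log2 ratio of Dnajb1 to Hspa8 counts was -8.09, while the other 4 Skp1a-labelled libraries lay between -5.98 and -5.82; the gap was 0.929 of the group's whole range. Dnajb1 had 10 counts in that library. Of 12 sets of ratios examined this was the only one so marked, and chance marks about 1 set in 20.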

How the results depend on the processing

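Counts of called genes depended strongly on which libraries shared the error. For Skp1aKO against Skp1acont (0 genes called), size factors gave 1 gene, library totals 4, no filter 5, the replicate block 1 and DESeq2 95. For Skp1acont against wt (6866 genes, 2 chaperones), fitting only the groups compared gave 0 genes and 0 chaperones, and DESeq2 gave 6 chaperones. For Skp1aKO against wt (3 chaperones), library totals gave 1, only the groups compared 7 (of 9990 genes called, 69.3% of those tested) and DESeq2 6. For Skp1acont PI against wt PI (83 genes, 0 chaperones), size factors gave 610 genes, library totals 1174, the block 17, only the groups compared 7998 genes and 7 chaperones, and DESeq2 1810 genes and 2 chaperones. For wt at 9.5 against 9.0 dpc (302 genes, 1 chaperone), no filter gave 0 chaperones, only the groups compared 3309 genes and 6 chaperones, wt alone 4161 and 8, wt alone with the block 5469 and 9, and DESeq2 538 genes. For wt PI against wt (13 genes, 0 chaperones), no filter gave 27 genes, only the groups compared 3397 genes and 6 chaperones, wt alone 3669 and 6, wt alone with the block 5111 and 7, and DESeq2 218 and 1. The replicate block across all groups changed no count of called chaperones. Directions that turned were all of values that had not passed. In Skp1aKO against Skp1acont, Dnajb1 was 0.022 on totals, 0.13 with the block and 0.019 in DESeq2. In Skp1aKO against wt, Ahsa1 was 0.017 with size factors, 0.59 on totals, 0.022 with only the groups compared and 0.019 in DESeq2, Hspd1 was 0.25 on totals and Stip1 -0.097 with no filter. In Skp1acont against wt, Hspd1 was 0.0035 on totals and Ahsa1 -0.021 with the block. In Skp1acont PI against wt PI, Hsp90ab1 was 0.13 with size factors, 0.57 on totals, 0.12 with only the groups compared and 0.13 in DESeq2, and on totals Hspa4l was 0.14 and Dnajb1 0.38. In wt PI against wt, Hspa8 was -0.031 with size factors, -0.0049 with the block, -0.032 with only the groups compared, -0.0037 in wt alone, -0.0026 there with the block and -0.031 in DESeq2. Leaving out 1 library at a time, where a lone library is assumed to vary like the other groups, gave 0 to 5723 genes and 0 to 9 chaperones for Skp1aKO against Skp1acont, 281 to 11548 and 0 to 8 for Skp1aKO against wt, 13 to 13512 and 0 to 9 for Skp1acont against wt, 1 to 7347 and 0 to 5 for Skp1acont PI against wt PI, 0 to 3008 and 0 to 6 for 9.5 against 9.0 dpc, and 0 to 2361 and 0 to 5 for wt PI against wt. The values that turned then ranged, for Skp1aKO against Skp1acont, from -0.12 to 0.60 for Hsp90ab1, -0.92 to 0.70 for Hspa8, -0.0024 to 0.64 for Hspa4l, -1.18 to 0.36 for Hsph1, -1.08 to 0.95 for Stip1, -1.01 to 1.25 for Ahsa1, -0.31 to 0.82 for Hspd1, -0.45 to 1.29 for Hspe1 and -0.96 to 2.89 for Dnajb1. Against wt they ranged from -0.093 to 0.33 for Stip1 and -0.44 to 0.20 for Ahsa1 in Skp1aKO, and from -0.078 to 0.76 for Hsp90ab1, -0.91 to 1.25 for Stip1, -1.46 to 0.92 for Ahsa1 and -3.96 to 0.026 for Dnajb1 in Skp1acont. Hsp90ab1 ranged from -0.029 to 0.094 in Skp1acont PI against wt PI, and Hspa8 from -0.079 to 0.15 in wt PI against wt. The log2 difference of Hsp90aa1 to Hsp90ab1 ranged from -1.20 to -0.89, that of Hspd1 to Hspe1 from 0.95 to 1.31, that of Hsph1 to Hspa8 from -0.041 to 0.093 and that of Dnajb1 to Hspa8 from 0.022 to 0.59. Without the PI libraries, where no p can go below 0.133, they were -1.40 and 1.65, with -0.14 for Hsph1 to Hspa8 and -0.15 for Dnajb1 to Hspa8. With 9.0 dpc wt added, Ahsa1 to Hsp90ab1 passed at -0.88 (adjusted exact permutation p = 0.0433). The causes of these shifts were not tested. Low counts limit Dnajb1, Hspa4l, Hsf1 and Hyou1, as well as Hspa1a, Hspa1b and Hspb1.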
